A study of Mus musculus with 9 samples.

Results

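Apical-basal polarity is the arrangement by which an epithelial cell keeps its lumen-facing membrane distinct from its sides and base. Expression of 10 genes of this machinery was examined in the mouse uterus with and without the kinase WNK1: Pard3, Pard6b, Prkci and Prkcz of the PAR complex, Crb3 of the Crumbs complex, Llgl2, Scrib and Dlg1 of the Scribble complex, and Ezr and Msn, which encode the ezrin-radixin-moesin (ERM) proteins ezrin and moesin. The genes were picked by symbol, not by a cut on their values, although earlier results of these data were known. Each was a single entry of a table of 31274 entries. All 10 passed the filter on low values (a mean above 1 in at least 1 genotype), as did 14728 entries in all.

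The table gives FPKM (sequenced fragments per kilobase of transcript, scaled by the mapped fragments of each library) for whole uteri of C57BL/6 mice on pseudopregnancy day 4.5, within the window in which the uterus accepts an embryo, with 1 library from each of 4 Wnk1f/f control mice and 5 Wnk1d/d mice. The females had been mated with vasectomized males, so that no embryo was present. In Wnk1d/d mice both floxed copies of Wnk1 are recombined by Cre expressed from the progesterone receptor (Pgr) locus, which removes exon 2 in cells that have expressed that receptor (epithelium, stroma and smooth muscle), while cells without it, such as endothelial and immune cells, keep the gene. Wnk1f/f mice carry the same floxed alleles without Cre, and therefore also without the Cre insertion at Pgr.

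The PAR complex (PAR3, PAR6 and an atypical protein kinase C) and the Crumbs complex define the apical domain and the junctions at its border, and the Scribble complex (Scribble, DLG and LGL) defines the basolateral domain, with atypical protein kinase C phosphorylating LGL to keep it off the apical side. ERM proteins, once phosphorylated, tie the actin cytoskeleton to the plasma membrane and build microvilli. In the uterus the luminal epithelium loses much of its apical-basal polarity as it becomes receptive, its junctions are remodelled and its microvilli flatten, so these genes are of interest at the stage sampled here. FPKM measures RNA, and neither the position of these proteins in the cell nor their phosphorylation was measured in these libraries.

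On the mouse build mm10 (GENCODE release M21) the members lay on 8 autosomes and the X chromosome, with Crb3 and Ezr both on chromosome 17. Crb3 spans 57059105 to 57065918 on the plus strand, where its exons overlap those of Dennd1c. Ezr spans 6738041 to 6782784 on the minus strand with exon overlap with Sytl3, and Msn spans 96096042 to 96168552 of the X chromosome on the plus strand with a small RNA gene, Gm24718, inside an exon. Dennd1c was 5.85 ± 2.58 FPKM (SD, n = 4) in Wnk1f/f and 3.92 ± 0.773 FPKM (SD, n = 5) in Wnk1d/d. Sytl3 was 2.29 ± 0.988 and 2.58 ± 0.397 FPKM. These means were low beside those of the members they overlap. The highest Dennd1c value, 9.46 FPKM, was in Wnk1f/f replicate 4, where Crb3 had its lowest, 25.43 FPKM. Strand use in counting was not given in the sources used here, so reads from the overlaps cannot be told apart.

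Promoter sequence is shown for the most abundant polarity gene (Crb3) and for both ERM members, the 3 most abundant members, to set out the sequence before a RefSeq start of the genes with the highest levels. Sequences are from RefSeq on GRCm38.p6, 5′ to 3′ on the gene's own strand, restricted to the longest stretch free of exons within 250 bases before the RefSeq start: Crb3 at chr17:57061951-57062140 (plus strand), Ezr at chr17:6782785-6783030 (minus strand) and Msn at chrX:96095795-96096041 (plus strand). The Crb3 stretch lies inside the span given above for the gene, since the RefSeq start used is downstream of the first GENCODE start. Capitals mark an E-box (CACCTG or its reverse complement) in Crb3 and GC boxes (GGGCGG or its reverse complement CCGCCC) in Ezr and Msn.
Crb3: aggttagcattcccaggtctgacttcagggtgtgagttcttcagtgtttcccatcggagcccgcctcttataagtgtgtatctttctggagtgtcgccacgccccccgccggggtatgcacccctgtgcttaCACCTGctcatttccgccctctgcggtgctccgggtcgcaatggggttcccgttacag
Ezr: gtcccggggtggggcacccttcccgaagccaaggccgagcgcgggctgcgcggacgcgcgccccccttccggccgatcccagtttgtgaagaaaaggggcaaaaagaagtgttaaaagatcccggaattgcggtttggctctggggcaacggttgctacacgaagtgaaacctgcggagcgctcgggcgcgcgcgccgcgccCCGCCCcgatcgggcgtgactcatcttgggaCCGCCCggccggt
Msn: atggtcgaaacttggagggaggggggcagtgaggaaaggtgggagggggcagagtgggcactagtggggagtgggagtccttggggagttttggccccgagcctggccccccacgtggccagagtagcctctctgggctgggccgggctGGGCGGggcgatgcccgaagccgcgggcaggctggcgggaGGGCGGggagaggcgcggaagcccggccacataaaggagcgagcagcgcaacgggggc

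The Ezr stretch of 246 bases held 2 GC boxes and 32 CpG dinucleotides, and that of Msn, 247 bases, held 2 GC boxes and 17 CpG. The Crb3 stretch of 190 bases held 1 E-box, the hexamer bound by SNAIL and ZEB repressors of epithelial genes, 1 GC box (left in lower case) and 11 CpG. RefSeq promoter windows (250 bases before to 50 bases after a start) were at hand for 8 of the 10 member genes, with 15 starts. On either strand the E-box stood in windows of 4 of these 8 genes (Crb3, Pard3, Pard6b and Prkcz; 6 of 15 starts), against 17.2% of 32851 windows genome-wide. The GC box, the motif bound by SP1-type factors, stood in windows of 8 of 8 genes (11 of 15 starts), against 32.7% of all windows. The genome-wide shares are per window, so they stand beside the counts of starts and not beside the counts of genes. They were not limited to genes that passed the filter. Starts of 1 gene can share sequence, the E-box and the GC box were counted separately, and a match describes letters only, not binding.

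The targeted gene was read first as a check of the labels. Wnk1 was at 44.9, 43.4, 47.3 and 45.5 FPKM in Wnk1f/f replicates 1 to 4 and at 33.9, 29.9, 31.0, 30.2 and 31.3 FPKM in Wnk1d/d replicates 1 to 5. Every Wnk1d/d library lay under every control, and the gene was lower with a log2 fold change of -0.52 (standard error 0.06, limma adjusted p = 0.0017, exact two-sided permutation p = 0.0079, the smallest that 4 against 5 libraries allow). In Wnk1f/f replicate 4 the summed FPKM of 9 liver markers, read to check what else the samples held, was 207, against 29.4 to 48.8 in the other 8 libraries, and albumin (Alb, named after its values were seen) was 77.65 FPKM against at most 1.5 FPKM. A single entry made up 70.3% of all FPKM in Wnk1d/d replicate 4, where the highest entry of each other library made up 6.43 to 13.8%. The median log2(FPKM + 1) of the tested genes was 3.795 to 3.822 over the 9 libraries.

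None of the 10 polarity and ERM genes differed between Wnk1d/d and Wnk1f/f uteri at an adjusted p under 0.05 in limma, where 22.1% of the 14728 genes tested did. The count was also 0 of 10 at an unadjusted p under 0.05 (38.4% of all genes), 0 of 10 by the exact permutation test at p under 0.05, and 0 of 10 for genotypes without overlap (19.9% of all genes). With the added criterion of a ratio of means of at least 1.5, the count was again 0 of 10, beside 10.3% of all genes. The log2 fold changes, Wnk1d/d against Wnk1f/f on log2(FPKM + 1), ran from -0.06 for Prkcz to 0.18 for Prkci, with standard errors of 0.07 to 0.15, beside a median standard error of 0.11 over all genes tested. Since a p above the threshold does not show equality, the 95% intervals were set beside a 1.5-fold change, the size used for differentially expressed genes in the study's methods. The interval of each of the 10 members lay within 1.5-fold in both directions, as did those of 66.1% of all genes, and the bounds reached farthest were 0.837-fold (Prkcz) and 1.38-fold (Crb3). The median log2 fold change of the members was 0.08, and 0.003 over all genes tested. The mean of 9 of the 10 members (all but Prkcz) was higher in Wnk1d/d uteri, but the difference turned under quantile normalization for Ezr and Msn and with library weights for Pard3, Pard6b and Llgl2.

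**Figure D1:**
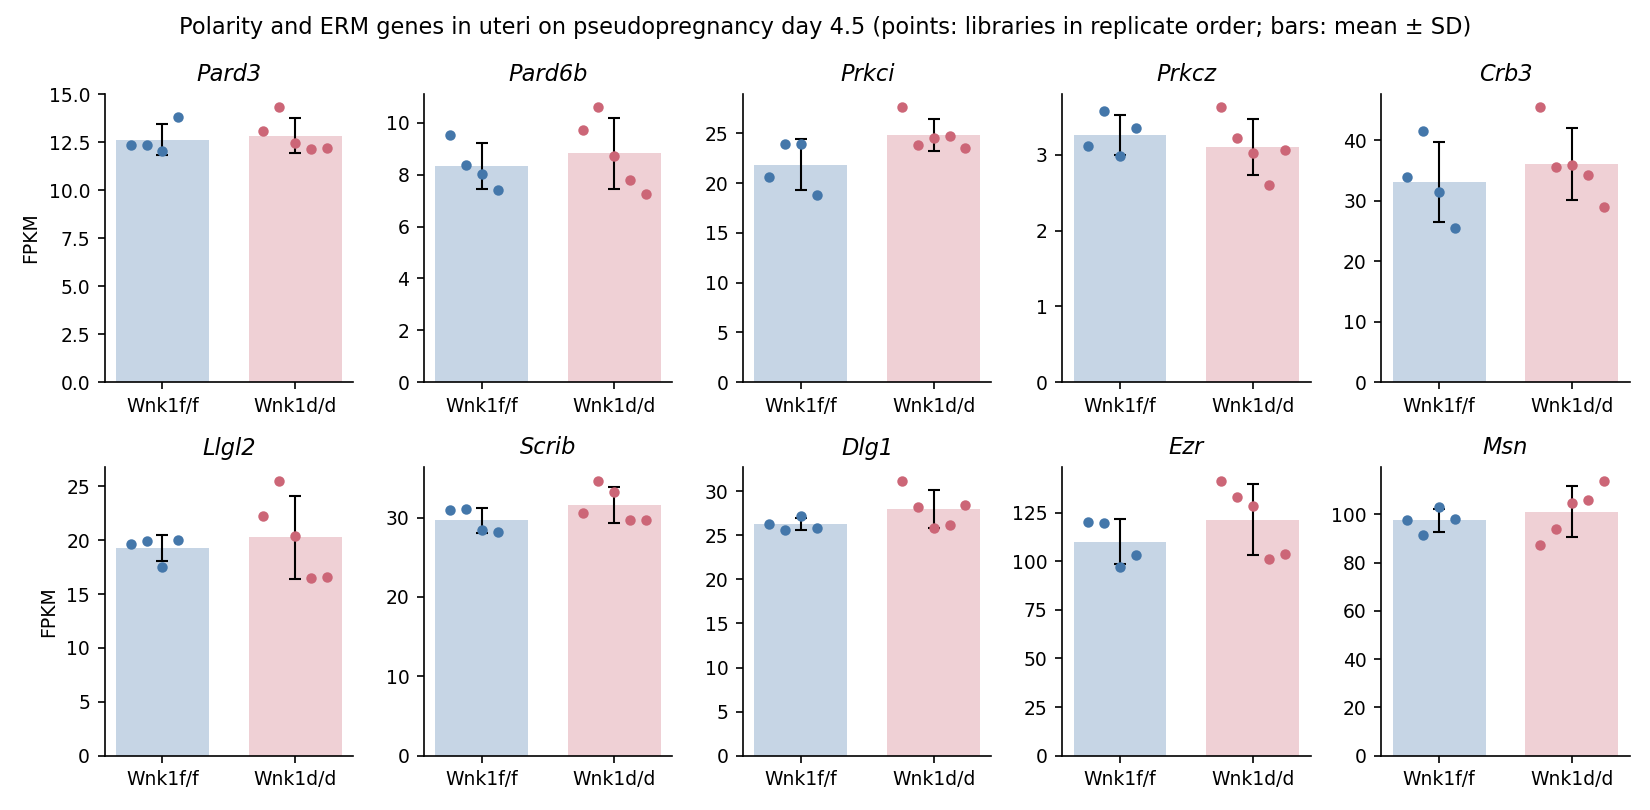
FPKM of the 10 members in each library, with 1 panel a gene, points for the libraries of each genotype in replicate order, bars for the mean (from 0) and whiskers for the SD over 4 Wnk1f/f and 5 Wnk1d/d libraries. The genotypes overlap in each panel, and levels run from about 3 FPKM for Prkcz to over 100 FPKM for Ezr.

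PAR3, the scaffold that recruits PAR6 and atypical protein kinase C to the apical junction, is encoded by Pard3. Pard3 was at 12.4, 12.3, 12.03 and 13.8 FPKM in Wnk1f/f replicates 1 to 4 and at 13.1, 14.3, 12.5, 12.1 and 12.2 FPKM in Wnk1d/d replicates 1 to 5. Apart from Wnk1d/d replicate 2, the highest of all, the Wnk1d/d libraries lay inside the control range. The means were 12.6 ± 0.808 FPKM (SD, n = 4) and 12.8 ± 0.915 FPKM (SD, n = 5), with a log2 fold change of 0.02 (standard error 0.07, interval 0.911- to 1.13-fold, limma adjusted p = 0.85, exact permutation p = 0.70). This was the narrowest distance between the genotypes among the members.

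Pard6b encodes a PAR6 isoform, the adaptor that couples the kinase to CDC42 and to Crumbs. It was at 9.52, 8.37, 8.04 and 7.41 FPKM in the Wnk1f/f libraries and at 9.72, 10.6, 8.73, 7.79 and 7.26 FPKM in the Wnk1d/d libraries. The Wnk1d/d values reached past the controls at both ends, with replicates 1 and 2 above all controls and replicate 5 below them. The log2 fold change was 0.07 (standard error 0.11, interval 0.880- to 1.25-fold, limma adjusted p = 0.69, exact permutation p = 0.56).

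Prkci encodes PKC iota, an atypical protein kinase C and the catalytic member of the PAR complex. Its FPKM was 20.7, 24.0, 24.0 and 18.9 in Wnk1f/f replicates 1 to 4 and 27.6, 23.8, 24.5, 24.7 and 23.6 in Wnk1d/d replicates 1 to 5. All 5 Wnk1d/d libraries lay above the control mean, but 2 of them (replicates 2 and 5) fell just under Wnk1f/f replicates 2 and 3, so the genotypes overlapped. The means were 21.9 ± 2.55 FPKM (SD, n = 4) and 24.8 ± 1.63 FPKM (SD, n = 5), the widest distance of any member in log2 terms (0.18, standard error 0.08, interval 0.994- to 1.29-fold), and did not pass the test (limma adjusted p = 0.15, exact permutation p = 0.063). Leaving out 1 library gave log2 fold changes from 0.12 (without Wnk1f/f replicate 4, limma adjusted p = 0.35) to 0.23 (without Wnk1f/f replicate 2, limma adjusted p = 0.11).

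Prkcz, for the second atypical kinase, PKC zeta, was the lowest member. Its FPKM was 3.12, 3.58, 2.98 and 3.36 in Wnk1f/f and 3.63, 3.22, 3.02, 2.60 and 3.07 in Wnk1d/d libraries. Wnk1d/d replicate 4 was the lowest and replicate 1 the highest of the 9, with the rest inside the control range. The log2 fold change was -0.06 (standard error 0.09, interval 0.837- to 1.11-fold, limma adjusted p = 0.68, exact permutation p = 0.52), and at so low a level the added 1 FPKM makes this scale understate a change. The ratio of Prkci to Prkcz FPKM, which no library scaling can alter, was 6.62, 6.70, 8.04 and 5.61 in Wnk1f/f and 7.61, 7.40, 8.11, 9.51 and 7.67 in Wnk1d/d libraries. Its mean log2 difference was 0.26 and did not pass the test (exact permutation p = 0.063), and with 1 FPKM added to both genes it was 0.24 (exact permutation p = 0.048). Leaving out 1 library gave 0.18 (without Wnk1f/f replicate 4, exact permutation p = 0.18) to 0.35 (without Wnk1f/f replicate 3, exact permutation p = 0.018). Replicate 3 is the only control that overlaps the Wnk1d/d ratios, so the value without it is a description and no test.

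CRB3 is the small transmembrane Crumbs protein of the apical membrane in most epithelia, where it holds the PALS1 and PATJ scaffolds. Crb3 was at 34.0, 41.5, 31.4 and 25.4 FPKM in Wnk1f/f and at 45.4, 35.5, 36.0, 34.2 and 28.9 FPKM in Wnk1d/d libraries. Wnk1f/f replicate 4 was the lowest and Wnk1d/d replicate 1 the highest, and the other Wnk1d/d libraries lay within the control range. The log2 fold change was 0.13 with the largest standard error of the members, 0.15 (interval 0.863- to 1.38-fold, limma adjusted p = 0.56, exact permutation p = 0.52). It was 0.01 without Wnk1f/f replicate 4 (the library with the high liver marker sum), 0.04 without Wnk1d/d replicate 1, 0.20 without Wnk1d/d replicate 5 and 0.24 without Wnk1f/f replicate 2, and was called in none of these.

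LLGL2, the epithelial LGL protein of the lateral membrane, is a substrate of atypical protein kinase C. Llgl2 was at 19.7, 19.9, 17.5 and 20.01 FPKM in Wnk1f/f and at 22.3, 25.5, 20.4, 16.5 and 16.6 FPKM in Wnk1d/d libraries. The 5 Wnk1d/d libraries fell to both sides of the controls, replicates 1 to 3 above all of them and replicates 4 and 5 below all of them. The means were 19.3 ± 1.20 FPKM (SD, n = 4) and 20.3 ± 3.84 FPKM (SD, n = 5), with a log2 fold change of 0.05 (standard error 0.13, interval 0.853- to 1.26-fold, limma adjusted p = 0.79, exact permutation p = 0.72).

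Scrib encodes Scribble, the large lateral scaffold after which its complex is named. It was at 31.0, 31.1, 28.5 and 28.2 FPKM in Wnk1f/f and at 30.5, 34.7, 33.2, 29.7 and 29.7 FPKM in Wnk1d/d libraries. Replicates 2 and 3 of Wnk1d/d lay above the controls and the other 3 inside their range. The log2 fold change was 0.08 (standard error 0.07, interval 0.954- to 1.18-fold, limma adjusted p = 0.38, exact permutation p = 0.23).

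DLG1, the third of the basolateral scaffolds, binds Scribble and cortical proteins through its PDZ and guanylate kinase-like domains. Dlg1 was at 26.3, 25.6, 27.2 and 25.9 FPKM in Wnk1f/f and at 31.2, 28.3, 25.8, 26.2 and 28.4 FPKM in Wnk1d/d libraries. The controls were the tightest group of any member (coefficient of variation 2.68%), and Wnk1d/d replicates 1, 2 and 5 lay above them while 3 and 4 lay among them. The log2 fold change was 0.08 (standard error 0.07, interval 0.958- to 1.17-fold, limma adjusted p = 0.36, exact permutation p = 0.17).

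Ezrin is the ERM protein of the epithelial apical surface and its microvilli, and Ezr was the most abundant member. Its FPKM was 120.03, 119, 97.2 and 103 in Wnk1f/f and 141, 133, 128, 101 and 104 in Wnk1d/d libraries. Replicates 1 to 3 of Wnk1d/d lay above all controls, whereas replicates 4 and 5 lay among the lower controls. The means were 109.9 ± 11.6 FPKM (SD, n = 4) and 121 ± 18.1 FPKM (SD, n = 5), with a log2 fold change of 0.14 (standard error 0.12, interval 0.912- to 1.32-fold, limma adjusted p = 0.43, exact permutation p = 0.30).

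Moesin is the ERM protein of mesenchymal, endothelial and blood cells, although epithelia also hold it. Msn was at 97.5, 91.5, 103 and 98.1 FPKM in Wnk1f/f and at 87.1, 93.8, 105, 106 and 114 FPKM in Wnk1d/d libraries. Wnk1d/d replicate 1 was the lowest of the 9, and replicates 3 to 5 lay above all controls. The log2 fold change was 0.05 (standard error 0.09, interval 0.905- to 1.18-fold, limma adjusted p = 0.71, exact permutation p = 0.56). By quantitative real-time PCR the study reported raised Msn mRNA in Wnk1d/d uteri, with no age or day given in that figure legend. Its text gave this result in support of adenomyosis-like features that it described in sections from older mice. Why that result and the FPKM differ was not tested. The ratio of Ezr to Msn FPKM was 1.23, 1.31, 0.944 and 1.05 in Wnk1f/f and 1.62, 1.42, 1.22, 0.955 and 0.910 in Wnk1d/d libraries. It overlapped between genotypes, with a mean log2 difference of 0.09 (exact permutation p = 0.67) that was -0.02 without Wnk1d/d replicate 1.

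**Figure D2:**
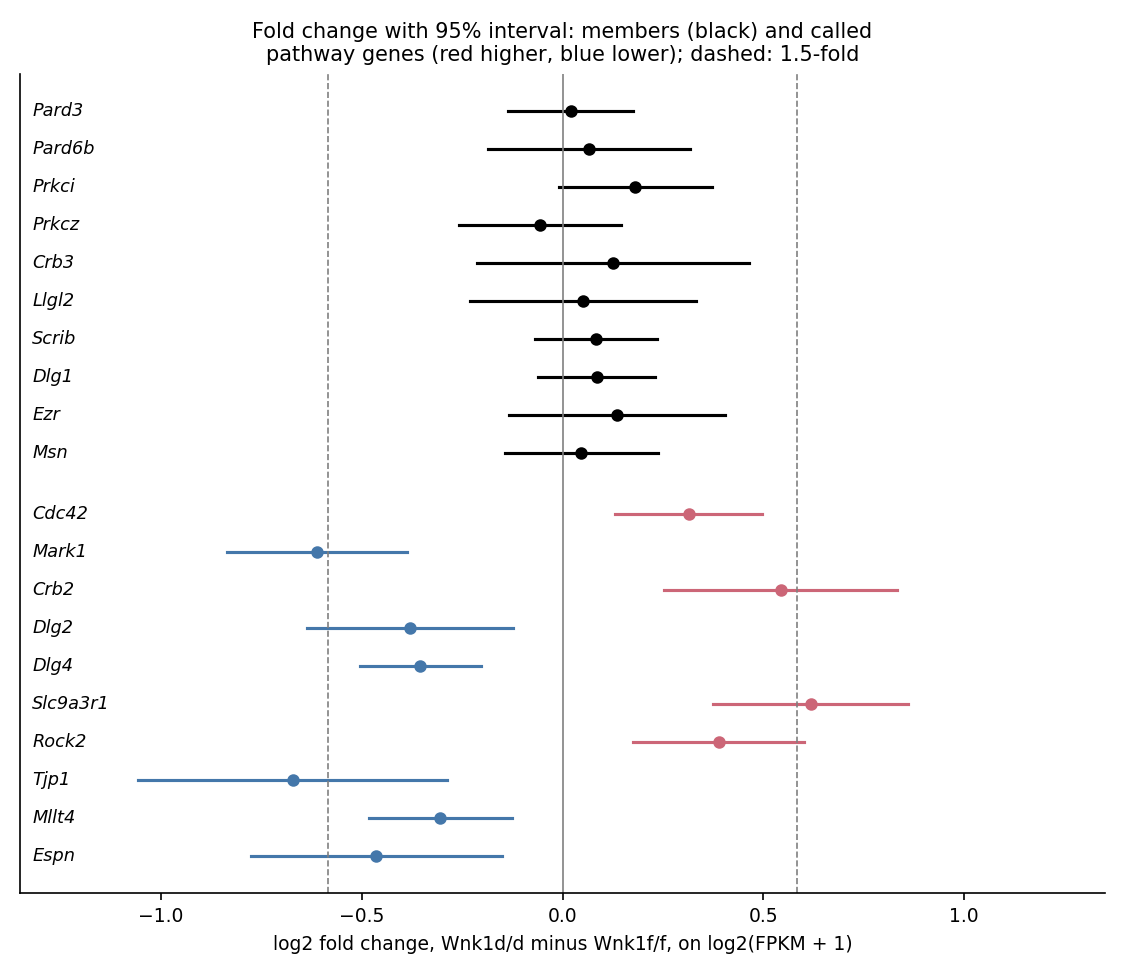
Log2 fold change (point) and 95% interval (line) from limma on log2(FPKM + 1), Wnk1d/d against Wnk1f/f, for the 10 members (black) and 10 other polarity, ERM, junction and microvillus genes that passed the test (red higher, blue lower), with dashed lines at 1.5-fold. The 10 black lines cross 0 and end inside the dashed lines.

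Levels can be compared between genes on the FPKM scale, which is per length. The mean over the 9 libraries ordered the members as Ezr (116 FPKM), Msn (99.5), Crb3 (34.7), Scrib (30.7), Dlg1 (27.2), Prkci (23.5), Llgl2 (19.8), Pard3 (12.7), Pard6b (8.60) and Prkcz (3.18). Neighbours in this order kept their places in all 9 libraries at 5 of the 9 steps (Msn over Crb3, Dlg1 over Prkci, Llgl2 over Pard3, Pard3 over Pard6b and Pard6b over Prkcz). At the other 4 the neighbours crossed. Ezr was above Msn in 6 of 9 libraries, Crb3 above Scrib in 7, Scrib above Dlg1 in 8 and Prkci above Llgl2 in 7. The 2 ERM genes thus stood apart from the 8 polarity genes in every library of either genotype.

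Most polarity genes have paralogs, and the part each member takes in its family was computed from summed FPKM, which assumes that the authors' counting told the paralogs apart. Pard3 made up 74.5 ± 3.27% (SD, n = 4) of Pard3 and Pard3b in Wnk1f/f and 78.9 ± 1.06% (SD, n = 5) in Wnk1d/d uteri. On average Pard6b shared its family almost evenly with Pard6a, at 38.9% and 37.1% in Wnk1f/f and 39.2% and 36.6% in Wnk1d/d, with the rest from Pard6g. Single Wnk1d/d libraries ranged from 34.15 to 45.83% for Pard6b and from 30.91 to 43.21% for Pard6a. Prkci supplied 86.9% and 88.9% of the atypical kinase FPKM, and Crb3 supplied 97.9% and 96.1% of the Crumbs family. The Crb3 shares did not overlap between genotypes (97.3 to 98.9% against 94.1 to 96.7%). Crb3 FPKM itself did overlap. Crb2, near the filter threshold, was 0.47 to 0.95 FPKM in Wnk1f/f and 1.19 to 1.82 FPKM in Wnk1d/d libraries. Llgl2 was the lesser share of the LGL pair, 35.1% and 31.9%, under Llgl1. Dlg1 was 27.7 ± 0.871% of the 5 DLG genes in Wnk1f/f and 31.7 ± 1.63% in Wnk1d/d, and these shares did not overlap either (26.6 to 28.6% against 29.7 to 33.8%), beside 26.2% and 21.9% for Dlg4. Both observations of shares without overlap were made after the values were seen and have no test. The shares of the other members in these families overlapped, and for FPKM 19.9% of all genes tested had no overlap. Among the 3 ERM genes, Ezr took 45.3% and 47.1%, Msn 40.3% and 39.4% and Rdx, for radixin, 14.4% and 13.5%.

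**Figure D3:**
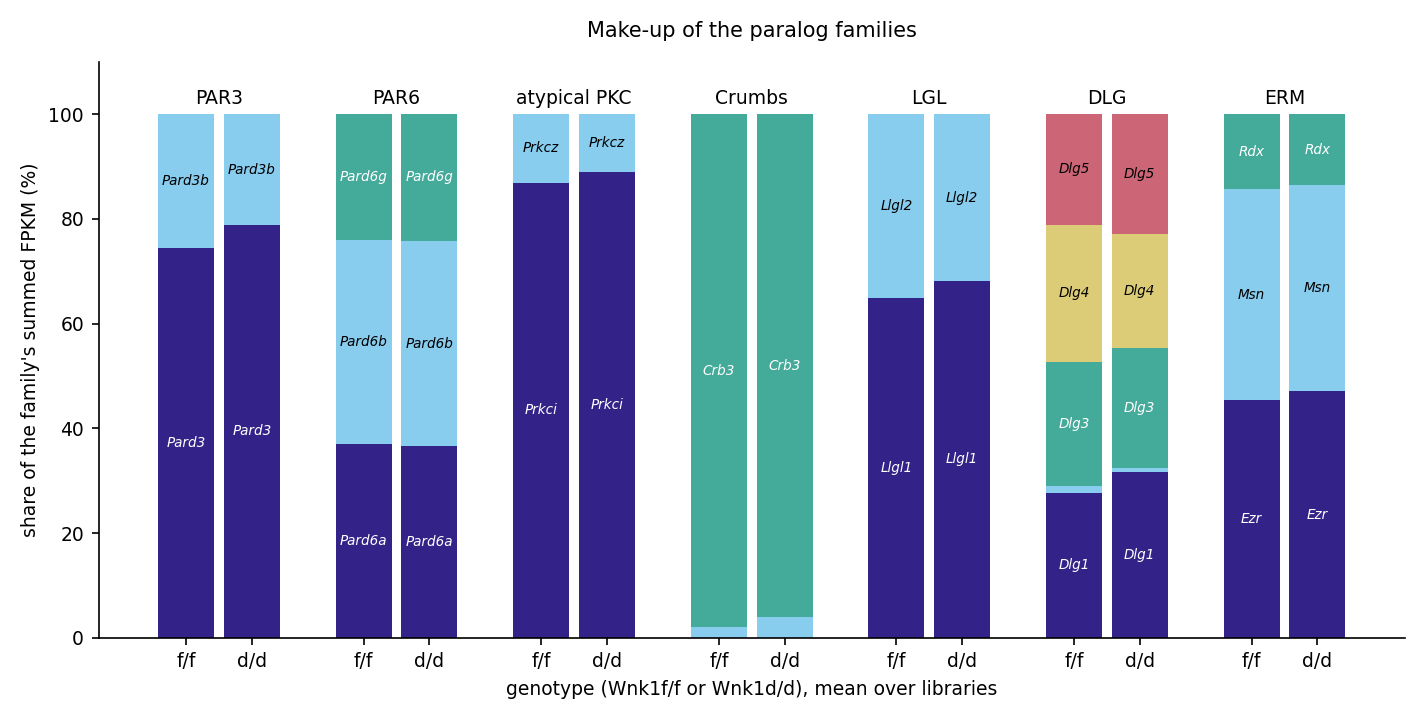
Mean share of each paralog in the summed FPKM of its family (y axis, percent, from 0), with the left bar of each pair for the 4 Wnk1f/f and the right bar for the 5 Wnk1d/d libraries. The unlabelled slivers are Crb2 (2.04% and 3.90%) and Dlg2 (1.24% and 0.762%), and the Dlg1 segment is 27.7% in Wnk1f/f and 31.7% in Wnk1d/d.

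Within the Wnk1d/d group 6 of the 10 members shared an order of libraries. For these (Pard3, Pard6b, Crb3, Llgl2, Scrib and Ezr) replicates 4 and 5 were the 2 lowest of the 5 libraries, an order shared by 9.91% of all genes tested. Of the further pathway genes described below, 5 of 10 junction, 3 of 12 PAR, 2 of 8 Scribble and 2 of 4 microvillus genes tested had it. In the Crumbs and ERM lists 0 of 7 and 0 of 15 genes tested did. Msn had the opposite order, with replicates 4 and 5 highest, as had 11.1% of all genes. The order was noticed after the values were seen and has no test. Of the 7 marker lists for cell types, those for epithelium and smooth muscle moved with it: replicates 4 and 5 were the 2 lowest for 10 of 12 epithelial markers and the 2 highest for 8 of 8 smooth muscle markers. They were the 2 lowest for 0 of 9 endothelial, 0 of 9 stroma, 0 of 5 gland, 3 of 8 immune and 4 of 8 liver markers, and the 2 highest for 0, 1, 1, 0 and 1 of these. The summed FPKM of the epithelial markers was 1156, 1643, 1320 and 1122 in Wnk1f/f replicates 1 to 4 and 1875, 1621, 1528, 1318 and 1235 in Wnk1d/d replicates 1 to 5. That of the smooth muscle markers was 6755, 4375, 5532 and 3014 in Wnk1f/f and 9895, 7572, 11185, 14210 and 13655 in Wnk1d/d. In whole uterus, fewer cells of a type and less RNA per cell cannot be told apart, and the part of tissue composition in the members' values was not tested.

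**Figure D4:**
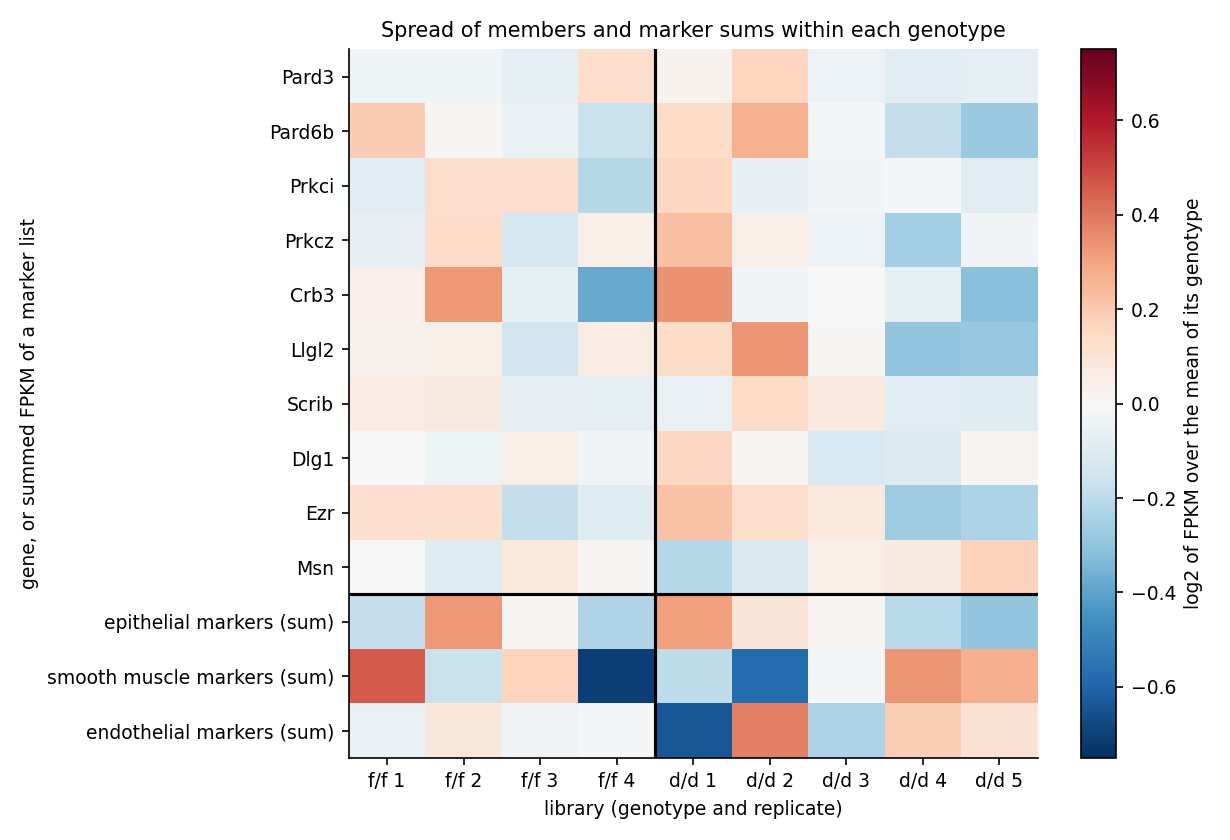
Deviation of each library from the mean of its own genotype (colour, log2 of FPKM over that mean) for the 10 members and, below the line, for the summed FPKM of the epithelial, smooth muscle and endothelial markers, with Wnk1f/f replicates 1 to 4 at the left and Wnk1d/d replicates 1 to 5 at the right. Columns d/d 4 and d/d 5 are blue for Llgl2, Ezr and the epithelial sum, and red for Msn and the smooth muscle sum.

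Between the genotypes, the marker lists also differed. Of the 12 epithelial markers, all of which passed the filter, 4 were higher in Wnk1d/d uteri (Krt7, a keratin, and the epithelial transcription factor genes Elf3, Grhl2 and Ehf) and none was lower, with a median log2 fold change of 0.22. Krt7 was 104 ± 29.6 FPKM (SD, n = 4) and 193 ± 58.6 FPKM (SD, n = 5). With any 1 of the 9 libraries left out, 0 to 3 epithelial markers were called. All 8 smooth muscle markers were higher, among them Acta2 (1117 and 2451 FPKM), Tagln, Actg2 and Myh11 (5 to 8 when a library was left out). Of the 9 endothelial markers 8 were lower, among them Cdh5 (87.8 and 44.5 FPKM), Egfl7, Pecam1 and Emcn (4 to 9 when a library was left out). Of 9 stroma markers 7 were lower, among them Vim, Hoxa10 and Hoxa11, and 1, Lum, was higher (7 or 8 called when a library was left out). Of 5 gland markers 2 were lower (Prss29 and Spink3) and 1 higher (Lif). Of the immune and liver markers, 8 of 9 in each list passed the filter and 0 of 8 were called in either list by limma, with 1 and 2 at an unadjusted p under 0.05.

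The rest of the machinery was followed through 62 further genes in 6 lists, of which 56 passed the filter. Of these, 4 rose and 7 fell in Wnk1d/d uteri (19.6%, beside 22.1% of all genes), and their median log2 fold change was 0.005. Of the called genes, Crb2, Dlg2 and Espn passed the filter only through the genotype where they were higher. Without the filter they were also called (limma adjusted p = 0.019, 0.027 and 0.046). With a filter at 5 FPKM they were not tested. Among 12 PAR complex genes and partners 1 rose and 1 fell. Cdc42, the GTPase that binds PAR6, was 204, 198, 207 and 184 FPKM in Wnk1f/f and 262, 211, 249, 264 and 250 FPKM in Wnk1d/d libraries, a rise without overlap (log2 fold change 0.31, limma adjusted p = 0.025). Mark1, a kinase of the PAR1 group, was 10.4 ± 1.45 FPKM (SD, n = 4) and 6.46 ± 0.650 FPKM (SD, n = 5), a fall of 0.61 on the log2 scale (limma adjusted p = 0.0056). Of the uncalled, Rac1, Stk11, Mark3 and Mark2 were the most abundant, with log2 fold changes of 0.02, -0.19, 0.17 and 0.03. Of 8 Crumbs complex genes 7 passed the filter and 1 rose, Crb2, a paralog of Crb3 (0.670 ± 0.224 and 1.43 ± 0.284 FPKM, limma adjusted p = 0.019). Lin7c, Lin7b, Inadl (PATJ) and Mpp7 had log2 fold changes of 0.14, 0.32, -0.11 and 0.05 and were not called. Of 8 Scribble complex genes and paralogs 2 fell, Dlg2 (1.18 ± 0.263 and 0.670 ± 0.124 FPKM, limma adjusted p = 0.042) and Dlg4 (24.9 ± 0.924 and 19.3 ± 1.48 FPKM, limma adjusted p = 0.0088), both best known as scaffolds of synapses. Llgl1, Erbb2ip, Dlg3 and Dlg5 (0.26, -0.12, -0.16 and 0.00) were not called.

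Of 15 ERM proteins, partners and regulators, 2 rose and none fell. Slc9a3r1 encodes EBP50 (NHERF1), the adaptor that ERM proteins hold at the apical membrane. It was 33.0, 30.1, 30.7 and 26.0 FPKM in Wnk1f/f and 57.5, 40.2, 47.2, 46.1 and 42.4 FPKM in Wnk1d/d libraries, with every Wnk1d/d library above every control (log2 fold change 0.62 with a standard error of 0.11, limma adjusted p = 0.0069). Rock2, a RHOA-dependent kinase able to phosphorylate ERM proteins, was 13.2 ± 1.96 FPKM (SD, n = 4) and 17.4 ± 0.593 FPKM (SD, n = 5), with a log2 fold change of 0.39 (limma adjusted p = 0.02). Rhoa, Slc9a3r2, Ppp1r12a and Podxl had log2 fold changes of 0.06, -0.32, 0.30 and -0.21 and were not called, and Rdx (0.00, named after its values were seen) was not called either. Of 10 junction genes 3 fell and none rose, among them Tjp1 (ZO-1; 41.8 ± 6.00 and 26.3 ± 7.16 FPKM, limma adjusted p = 0.024) and Mllt4 (afadin; 41.6 ± 3.93 and 33.5 ± 2.28 FPKM, limma adjusted p = 0.026), which link junctional membrane proteins to actin. F11r, Cgnl1, Tjp3 and Ocln (-0.06, -0.05, 0.34 and -0.24) were not called. Of 9 genes of the microvillus and apical cortex only 4 passed the filter, and 1, the actin bundler gene Espn, fell (1.74 ± 0.392 and 0.988 ± 0.278 FPKM, limma adjusted p = 0.042). Espn, like Dlg2 above, passed the filter only through its Wnk1f/f mean. Eps8, Pls1 and Myo1a (-0.10, 0.18 and -0.34) were not called, and Vil1, for villin, did not pass the filter.

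Mark1, Dlg4 and Slc9a3r1 passed the test whichever of the 9 libraries was left out. The other called genes named here did not in some of these fits, where their adjusted p was 0.051 to 0.069 for Cdc42 (without Wnk1f/f 2 or 4 or Wnk1d/d 1, 3, 4 or 5), 0.051 for Crb2 (Wnk1f/f 4), 0.052 for Rock2 (Wnk1d/d 3) and 0.051 to 0.065 for Tjp1 (Wnk1f/f 1, 3 or 4 or Wnk1d/d 1, 3 or 5). It was 0.053 to 0.063 for Mllt4 (Wnk1f/f 1, 2 or 3 or Wnk1d/d 3, 4 or 5), 0.061 to 0.11 for Espn (any but Wnk1f/f 3 and Wnk1d/d 2) and 0.054 to 0.09 for Dlg2 (any but Wnk1f/f 1). Cdc42 also missed the threshold under quantile normalization, and Dlg2 with library weights. A difference between the called genes and the members was not tested.

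**Figure D5:**
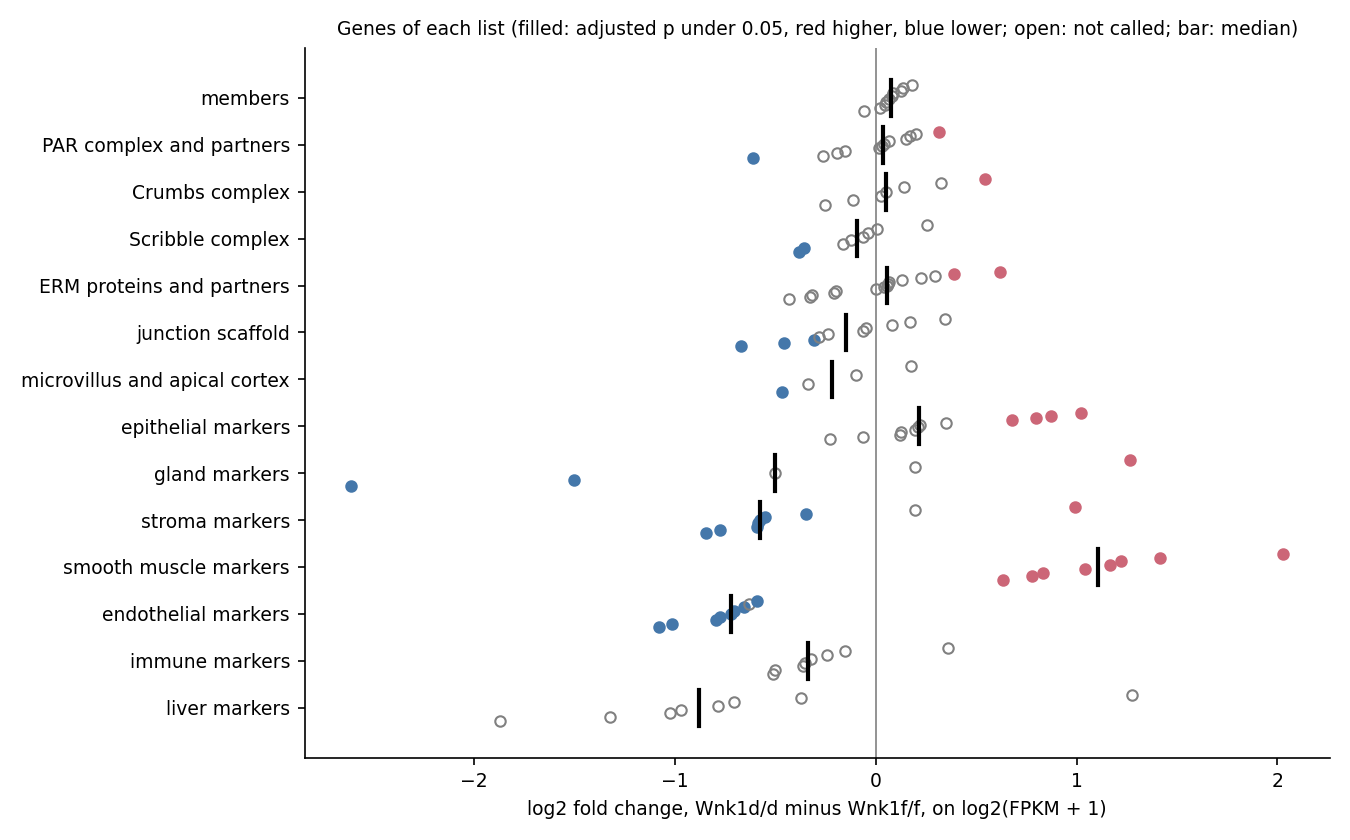
Log2 fold change of each gene tested, Wnk1d/d against Wnk1f/f on log2(FPKM + 1), in 1 row for the members, 6 rows for the other polarity, ERM, junction and microvillus lists and 7 for the cell type markers (filled points passed the test, red higher and blue lower; open points did not; bars are medians). The 10 open points of the members lie between -0.06 and 0.18, a narrower span than that of the other lists.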

How the data were processed

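RNA from the whole uterus of each of 4 Wnk1f/f and 5 Wnk1d/d mice was made into 1 library with the TruSeq RNA kit and sequenced as paired ends on a HiSeq instrument. The authors aligned the reads to mm10 and deposited 1 table of FPKM per gene symbol and library, scaled by gene length and library size. The submitters' processing notes name TopHat2 2.0.4 and Cufflinks 2.0.2. The annotation and the strand setting of the counting are not given in the sources used here. Absolute depth is unknown from FPKM, so no counting intervals were given.

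Groups came from the genotype label, and nothing says whether mice shared a litter or preparation day. No column was left without a sample. From the deposited values log2(FPKM + 1) was tested with limma 3.58.1 in R 4.3.3 (functions lmFit and trended eBayes, no pairing, all 9 libraries). Genes entered when the FPKM mean of either genotype exceeded 1, with Benjamini-Hochberg adjustment over all 14728. Cuffdiff, used by the authors, needs aligned reads and was not rerun. Called means an adjusted p under 0.05. Single genes (on FPKM) and log2 ratios were also compared by exact two-sided permutation over all splits into 4 and 5 (SciPy 1.17.1, NumPy 2.4.6, Python 3.11.15). Simulated data served to check the fit.

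The members, gene lists and tests were chosen with earlier results of these data known. Named genes were all members, Wnk1, each called gene of the 6 pathway lists with up to 4 uncalled by highest mean FPKM, and up to 4 called markers a list by mean FPKM. Symbols in older use in the table (Mllt4 for Afdn, Inadl for Patj, Emr1 for Adgre1) were matched by name. Results for some genes are not reported here, although counts over lists include them. Alternatives were pseudocounts, filters, scalings, limma options, a replicate block and leaving out each library. Coordinates come from GENCODE release M21 and promoters from RefSeq on GRCm38.p6, both the build of the table, matched by symbol.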

Additional observations from a re-analysis of the deposited data

Results flagged for a closer look

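In 5 of 48 groups of libraries (the members, both of their ratios, Wnk1 and the called pathway genes, each genotype taken alone) 1 library lay farther from the others than Dixon's 95% value allows, where chance flags about 1 in 20. Prkci in Wnk1d/d replicate 1 was 27.63 FPKM, above 23.56 to 24.73 FPKM in the other 4. Llgl2 in Wnk1f/f replicate 3 was 17.47 FPKM, below 19.68 to 20.01 FPKM in the other 3. Among partners, Cdc42 in Wnk1d/d replicate 2 was 211.4 FPKM (others 249.4 to 263.6), Rock2 in Wnk1f/f replicate 2 was 10.24 FPKM (others 14.0 to 14.35), and Tjp1 in Wnk1d/d replicate 2 was 38.91 FPKM (others 21.49 to 24.62).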

How the results depend on the processing

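In the 19 alternatives to the test of single genes (9 leaving out 1 library, 10 others) no member was called, the smallest adjusted p was 0.11 (Prkci), and all 189 member intervals lay inside 1.5-fold, with bounds from -0.34 to 0.57 on the log2 scale. Prkcz gave no value with a filter at 5 FPKM. An unadjusted p under 0.05 occurred in 2 of the 189, both for Prkci (without Wnk1f/f replicate 2 or 3). The sign of a member's log2 fold change turned in 8 of the 189, each an uncalled value: under quantile normalization for Ezr (-0.006) and Msn (-0.0812), with library weights for Pard3 (-0.0021), Pard6b (-0.0538) and Llgl2 (-0.0505), and when a library was left out for Pard3 (-0.0176 to 0.0608) and Llgl2 (-0.0326 to 0.1173). The cause was not tested.

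Leaving out 1 library gave 1739 to 4216 called genes, 1019 to 1869 genes that also changed at least 1.5-fold, 4 to 13 of the 56 pathway genes, 20 to 31 of the markers, and a Wnk1 log2 fold change of -0.55 to -0.50. The lowest numbers of called genes came without Wnk1f/f replicate 4 (1739), Wnk1d/d replicate 3 (1800) and Wnk1d/d replicate 5 (2051). The log2 difference ranged from -0.0205 to 0.1883 for the Ezr to Msn ratio and from 0.18 to 0.35 for the Prkci to Prkcz ratio, which was 0.24 (exact permutation p = 0.048) with 1 FPKM added. A fold criterion of 2 gave 550 genes in place of 1513.

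Same-numbered mice of the genotypes are different animals, and the correlation of their deviations was -0.09, -0.00, 0.02 and -0.27. The labels state no pairing, and these correlations cannot exclude a shared litter or preparation day. With the replicate block, which drops the unmatched Wnk1d/d replicate 5, 220 genes were called, 218 of them at 1.5-fold or more, with 0 pathway genes by limma (adjusted p 0.052 to 0.17 for the 11) and 3 markers, and Wnk1 was at -0.52 (adjusted p = 0.052). Unknown depth and 9 libraries limit the precision, and among the members the standard error was largest for Crb3.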
